A study of Mus musculus with 9 samples.

Results

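The 32 genes described here make cholesterol, fatty acids and their esters or control that synthesis. They were chosen by name as 13 sterol-pathway enzymes, 14 genes of fatty acid, desaturation and ester synthesis, 4 regulators of the SREBP pathway and the melanocortin receptor Mc5r. Of the 32 genes, 25 had a probe set annotated to them alone, 37 probe sets in all, among the 12488 probe sets of the array. The measurable set was 23 genes with 31 probe sets, against 5855 genes kept in the whole series. For 7 members, Pmvk, Srebf2, Scap, Acaca, Fads2, Soat1 and Dgat2, no value is given because no probe set was paired with the gene alone in the annotation used here. Insig1 and Elovl3 had probe sets that stayed below the filter on low signals.

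RNA came from whole skin of unirradiated mice on the inbred C57BL/6 background. The Cd1d knockout group (Cd1d -/-, 5 mice) lacked the molecule that presents lipid antigens to natural killer T cells, and the wild-type group (Cd1d +/+, 4 mice) was described as matched for age and sex, with no age stated. Each mouse had its own Affymetrix MG-U74 array, on which short oligonucleotides read a gene through 1 or more probe sets, and signals are in arbitrary MAS5 units. Whole skin mixes epidermis, hair follicles, sebaceous glands, fat, muscle and blood, so a lower signal from fewer cells of a type and from less RNA per cell cannot be told apart.

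Cholesterol is built from acetyl units through the mevalonate pathway and squalene, and the genes of this route are switched on together by the transcription factor SREBP-2 when cells are short of sterol. Fatty acid synthesis, elongation and desaturation are driven mainly by the related factor SREBP-1. In skin these pathways feed the sebum of the sebaceous gland and the lipid barrier of the epidermis, and the growth of the hair follicle and of skin fat also changes them. SREBP factors usually act on promoters beside a CCAAT box, which binds the factor NF-Y.

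Promoter sequences are shown for the sterol enzymes with the smallest p values and for Fasn, because the sterol genes are known to share such control. Each is the stretch of 250 bases before a RefSeq transcript start in build GRCm38.p6, read 5′ to 3′ on the gene's strand, with CCAAT or its reverse complement ATTGG, and TCACNCCAC, in capitals. The Hmgcs1 window is chr13:119690101-119690350 on the plus strand, that of Idi1 is chr13:8885356-8885605 (plus), and that of Nsdhl is chrX:72918271-72918520 (plus). The Sc5d window is chr9:42264301-42264550 on the minus strand and the Fasn window is chr11:120824548-120824797 (minus). The annotated Fasn gene starts at chr11:120825166, so this window lies inside the gene, before a later transcript start.
Hmgcs1: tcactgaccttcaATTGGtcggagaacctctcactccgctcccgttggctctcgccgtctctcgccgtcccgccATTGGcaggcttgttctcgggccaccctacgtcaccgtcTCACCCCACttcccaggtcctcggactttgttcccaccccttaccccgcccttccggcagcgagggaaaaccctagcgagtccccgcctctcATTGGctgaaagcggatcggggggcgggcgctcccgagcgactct
Idi1: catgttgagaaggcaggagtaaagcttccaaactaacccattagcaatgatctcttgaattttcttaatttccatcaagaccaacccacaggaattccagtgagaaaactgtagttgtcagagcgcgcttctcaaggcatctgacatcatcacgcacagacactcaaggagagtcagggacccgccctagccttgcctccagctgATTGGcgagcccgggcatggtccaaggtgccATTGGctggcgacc
Nsdhl: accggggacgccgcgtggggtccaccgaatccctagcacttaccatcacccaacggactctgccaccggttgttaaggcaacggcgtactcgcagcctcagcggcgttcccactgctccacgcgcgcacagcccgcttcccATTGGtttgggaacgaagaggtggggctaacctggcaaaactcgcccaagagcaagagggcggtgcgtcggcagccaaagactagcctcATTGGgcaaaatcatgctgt
Sc5d: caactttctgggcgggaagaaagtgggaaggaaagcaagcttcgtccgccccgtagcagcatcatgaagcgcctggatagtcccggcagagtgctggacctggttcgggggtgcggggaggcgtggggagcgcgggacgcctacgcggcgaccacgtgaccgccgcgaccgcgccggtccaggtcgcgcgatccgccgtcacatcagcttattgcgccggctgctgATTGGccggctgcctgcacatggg
Fasn: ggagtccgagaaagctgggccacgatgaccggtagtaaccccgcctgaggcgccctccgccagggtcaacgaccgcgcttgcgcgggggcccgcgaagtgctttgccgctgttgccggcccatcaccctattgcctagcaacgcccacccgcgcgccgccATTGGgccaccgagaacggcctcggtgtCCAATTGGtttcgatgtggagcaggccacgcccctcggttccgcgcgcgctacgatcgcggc

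Among the members, 22 had a promoter window in the RefSeq table. CCAAT on either strand stood in at least 1 window of 10 of the 10 sterol enzymes with a sequence, and in 4 of 8 genes of fatty acid and ester synthesis. Among the 4716 genes kept on the arrays that had a window, the share of genes was 40.2%. Counted over windows, CCAAT stood in 76.9% of the 13 sterol windows and 4 of the 10 fatty acid and ester windows, against 34.5% of the 6094 windows of genes kept on the arrays and 33.8% of all 32851 windows. The sterol element TCACNCCAC, a form of the SREBP site, was found on either strand in 1.05% of all windows, and among the members only in that of Hmgcs1, which holds TCACCCCAC from 137 to 129 bases before the start. The same Hmgcs1 window has ATTGG at 237, 176 and 45 bases before the start (the first base of each match). The GC box GGGCGG, also searched on both strands, stood in 76.9% of the sterol windows and in 57.4% of the windows of genes kept on the arrays. These are letter matches and were not tested as binding sites.

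The targeted gene and the arrays as a whole set the frame. Cd1d1 read 47.6 to 79.6 in the 5 knockout mice and 91 to 130 in the 4 wild-type mice, with no overlap (log2 -0.86, SE 0.20, limma adjusted p = 0.242). Over the series, limma with Benjamini-Hochberg adjustment called 4 of 7658 kept probe sets at an adjusted p under 0.05, which is 0.0522%. The arrays differed in hair follicle markers: the median of 18 hair follicle markers, centred per gene, ran from -2.05 to 3.16 (log2) in the knockout and from -1.40 to 0.04 in the wild type, with knockout 2 and knockout 5 highest. These 18 were the measured ones of 33 listed, of which 26 had a probe set. All 18 were higher on average in the knockout, against 51.3% of all genes, with a median difference of 1.71. At an unadjusted limma p under 0.05, 7 of the 18 were higher, against 4.73% of all genes, and 0 passed the adjusted threshold. Not every knockout mouse was high: knockout 3 and knockout 4 had medians of -0.87 and -2.05.

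Sterol-pathway genes had higher values in knockout skin in most cases, by modest amounts, and 0 of the 31 member probe sets passed limma's adjusted threshold. Of the 12 measured sterol enzymes 10 had a positive log2 difference, against 51.3% of all genes, and the median was 0.34 against 0.0070 over all genes. Of the 9 measured fatty acid and ester genes 6 were positive, with a median of 0.16. At an unadjusted limma p under 0.05, 4 of the 12 sterol enzymes (Hmgcs1, Idi1, Nsdhl and Sc5d) and 1 of the 9 fatty acid and ester genes (Scd2) were higher, where the share of all genes was 4.73%. None of the members was lower at that level, where the share of all genes was 3.83%. In probe sets these are 7 of 31, or 22.6%, against 9.4% of all probe sets in either direction. The count of members was 3 without knockout 3, wild type 3 or wild type 4, 4 without knockout 1 or knockout 4, 11 without wild type 1, and 2 with the number of decimals in the deposited values as a block. Without knockout 3 or wild type 4, and with that block, the members' share was near or below that of all probe sets (9.68% against 10.9%, 9.68% against 9.23%, and 6.45% against 8.15%).

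**Figure D1:**
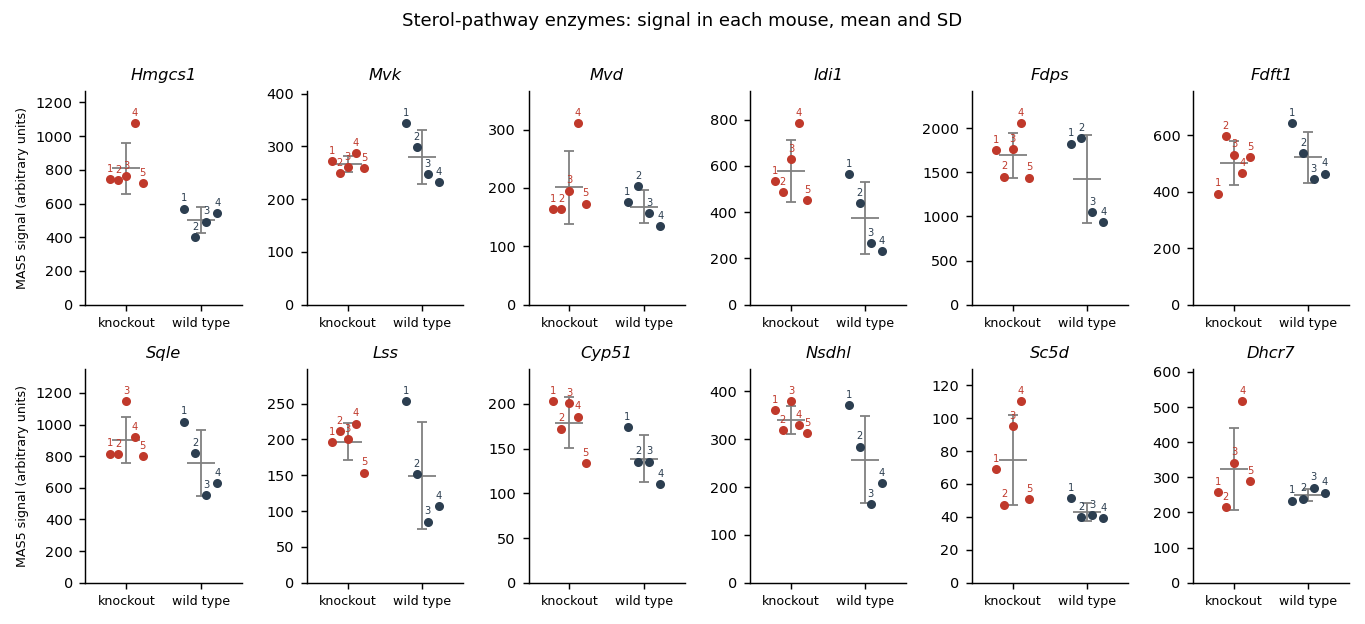
MAS5 signal (arbitrary units, linear axis from 0) of the 12 measured sterol-pathway enzymes, 1 panel per gene, with knockout mice left and wild-type mice right, each point a mouse with its number, and grey bars for mean and SD. The Hmgcs1 groups do not overlap, and in 7 of the 12 panels wild type 3 and wild type 4 are the lowest points of all.

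Hmgcs1, which makes the HMG-CoA that feeds the mevalonate pathway (chromosome 13), read 744.2, 738.4, 762.3, 1075.1 and 720.5 in knockout 1 to 5. Its signals were 570.1, 400.8, 493.2 and 544.3 in wild type 1 to 4. Every knockout mouse lay above every wild-type mouse, which held for 1 of the 12 sterol enzymes and for 1.66% of all genes; none of the members had every knockout mouse below every wild-type mouse, which 1.45% of all genes had. The means were 808 ± 150 in the knockout (SD, n = 5) and 502 ± 74.7 in the wild type (SD, n = 4), a log2 difference of 0.68 (SE 0.15, 95% interval 0.34 to 1.02, 1.60-fold) in limma. An exact two-sided permutation test over the 126 arrangements of the arrays gave p = 0.00794 for Hmgcs1, the smallest it can give. The limma adjusted p over all probe sets was 0.235. For the other members with an unadjusted limma p under 0.05, the exact permutation test gave weaker results. Its p was 0.0476 for Sc5d, 0.0714 for Idi1, 0.0873 for Nsdhl and 0.0952 for Scd2. With 1 mouse left out at a time, the Hmgcs1 difference lay between 0.57 and 0.75.

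The mevalonate kinase Mvk (chromosome 5), which phosphorylates mevalonate, did not share this pattern. Its brighter probe set averaged 266 ± 14.9 in the knockout and 280 ± 51.0 in the wild type (SD, n = 5 and 4; log2 -0.06, SE 0.14), and the other gave 0.0067. Mvd, the decarboxylase that yields isopentenyl diphosphate (chromosome 8), averaged 201 ± 62.3 in the knockout and 168 ± 28.7 in the wild type (log2 0.23, SE 0.20). Its knockout mean was carried by the 310.5 of knockout 4, the other knockout mice lying between 163.9 and 195.4, and its log2 difference was 0.065 without knockout 4 and 0.13 without wild type 4.

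Idi1, the isomerase that balances the pair of isoprene units (chromosome 13), read 535.4, 485.2, 630.4, 783.7 and 451 in knockout 1 to 5, against 563.4, 439.5, 267.6 and 230.4 in wild type 1 to 4. Wild type 3 and wild type 4 were the low samples, and wild type 1 lay inside the knockout range. The log2 difference of Idi1 was 0.69 (SE 0.26, limma adjusted p = 0.458). Fdps, which joins isoprene units into farnesyl diphosphate (chromosome 3), averaged 1693 ± 256 in the knockout and 1427 ± 501 in the wild type (log2 0.30, SE 0.22), with 0.36 at a second probe set. Wild type 1 and wild type 2 of Fdps, at 1826.3 and 1890.9, were above 4 of the 5 knockout mice, while wild type 3 and wild type 4 were at 1052.6 and 938.3. The Fdps difference was 0.46 without wild type 2, 0.18 without wild type 3 and 0.13 without wild type 4.

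The enzymes that make squalene and close it into a ring come next. Fdft1, squalene synthase (chromosome 14), averaged 501 ± 76.7 in the knockout and 521 ± 89.1 in the wild type (log2 -0.05, SE 0.16). Sqle, the epoxidase of the next step and a rate-limiting enzyme (chromosome 15), read 815.7, 815, 1146.1, 922.1 and 801.5 in knockout 1 to 5, against 1018.2, 818.9, 554.2 and 628.5 in wild type 1 to 4. For Sqle, wild type 1 was above 4 of the 5 knockout mice (log2 0.28, SE 0.18, limma adjusted p = 0.668), and the difference was 0.44 without wild type 1 and 0.15 without wild type 3. Lss, the cyclase that forms lanosterol (chromosome 10), averaged 197 ± 26.1 in the knockout and 149 ± 74.5 in the wild type (log2 0.51, SE 0.27). The single highest Lss signal, 253.1, belonged to wild type 1 and the lowest, 85.2, to wild type 3. Its difference was 0.81 without wild type 1 and 0.28 without wild type 3.

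Several members convert lanosterol to cholesterol. Nsdhl, a decarboxylating sterol dehydrogenase on the X chromosome, read 360.3, 319.1, 378.9, 329.3 and 312.1 in knockout 1 to 5, against 371.9, 284.7, 164.2 and 208.2 in wild type 1 to 4. The knockout values of Nsdhl lay close together, 1.21-fold from lowest to highest, whereas the wild-type values spanned 2.26-fold. For Nsdhl the log2 difference was 0.47 (SE 0.21, limma adjusted p = 0.520), it was 0.27 without wild type 3, and the other Nsdhl probe sets gave 0.70 and 0.37.

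Sc5d, the sterol desaturase of the penultimate steps (chromosome 9), read 69.2, 47.4, 95.3, 110.1 and 50.9 in knockout 1 to 5, against 51.2, 39.7, 41.2 and 39.3 in wild type 1 to 4. These are dim signals, since the level used as a filter was 43.4 to 53.3 depending on the array, and knockout 3 and knockout 4 stood out. The Sc5d log2 difference was 0.73 (SE 0.28, limma adjusted p = 0.461), with 0.37 at its second probe set. Its difference therefore depends on the probe set chosen.

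Cyp51, the lanosterol demethylase (chromosome 5), averaged 179 ± 28.3 in the knockout and 139 ± 26.5 in the wild type (log2 0.37, SE 0.17, limma adjusted p = 0.540). Dhcr7, which makes cholesterol in the last reduction (chromosome 7), averaged 324 ± 117 in the knockout and 250 ± 16.9 in the wild type (log2 0.31, SE 0.22). The wild-type mice were nearly alike for Dhcr7, 1.16-fold from lowest to highest, and the knockout mice spanned 2.41-fold, from 214.3 in knockout 2 to 515.9 in knockout 4. Without knockout 4 the Dhcr7 difference was 0.12.

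Among the members that control the pathway, only Srebf1 could be compared. Srebf1, the gene of SREBP-1 (chromosome 11), read 976.2, 953.9, 1352.5, 1120.1 and 1037.1 in knockout 1 to 5, against 1159.4, 1374.5, 867.9 and 814.8 in wild type 1 to 4. The groups overlapped throughout (log2 0.07, SE 0.17, 95% interval -0.31 to 0.44). Insig1, which holds SREBP in the endoplasmic reticulum when sterol is plentiful (chromosome 5), read 7.6, 7.4, 1.1, 1.8 and 11.2 in knockout 1 to 5, against 2.3, 3.1, 3.9 and 6.3 in wild type 1 to 4. All Insig1 signals were under the filter level, so no difference was computed.

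Fasn varied more between mice of a group than between the groups. Fasn, the fatty acid synthase (chromosome 11), read 1269.6, 2192.1, 1583.1, 1145.8 and 812.4 in knockout 1 to 5, against 1815.4, 2509.1, 555.8 and 521 in wild type 1 to 4. Its wild-type values spanned 4.82-fold, and the within-group SD was 0.86 (log2), against a median of 0.26 over all genes. The log2 difference of Fasn was 0.31 with an SE of 0.46, and it was -0.0084 without wild type 3 and -0.039 without wild type 4. Acly, which supplies acetyl-CoA from citrate (chromosome 11), averaged 1224 ± 172 in the knockout and 1361 ± 406 in the wild type (log2 -0.12, SE 0.18). Me1, the malic enzyme that supplies NADPH (chromosome 9), averaged 792 ± 219 in the knockout and 856 ± 224 in the wild type (log2 -0.13, SE 0.24).

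**Figure D2:**
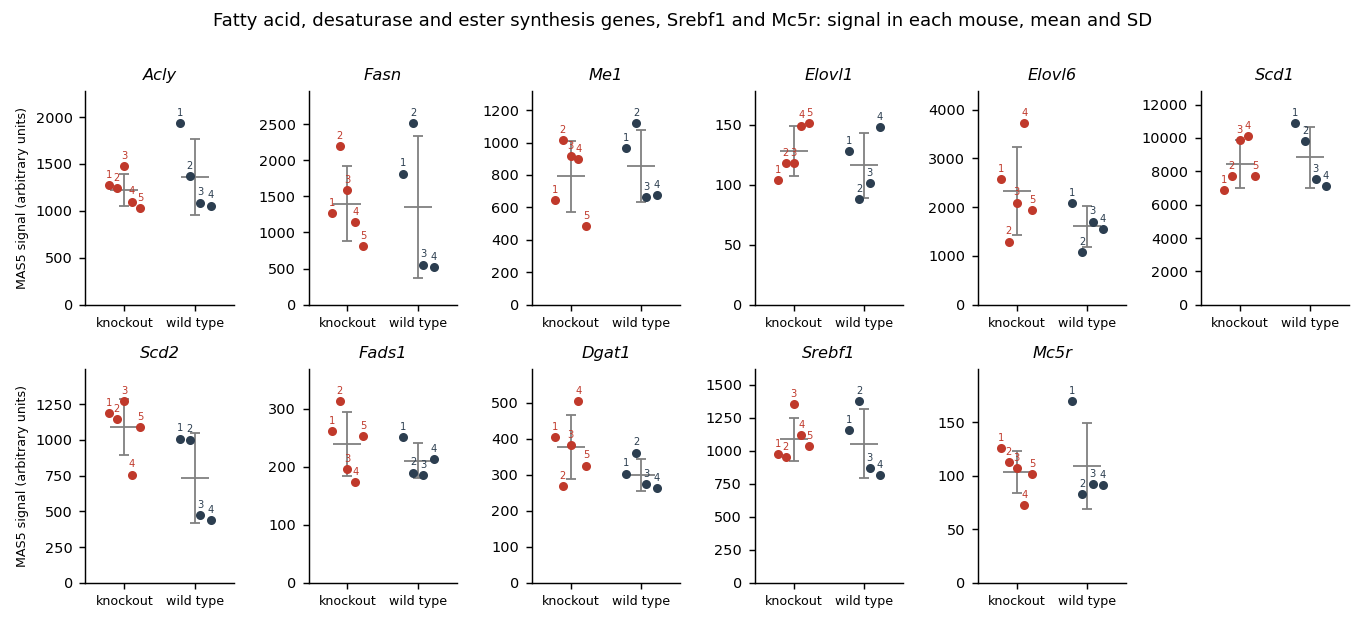
MAS5 signal (arbitrary units, linear axis from 0) of 9 genes of fatty acid, desaturase and ester synthesis, Srebf1 and Mc5r, drawn as for the sterol enzymes, with knockout mice left and wild-type mice right. The groups overlap in every panel, and Fasn spans 521 to 2509.1 within the wild type alone.

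The desaturases differed among themselves. Scd2, a stearoyl-CoA desaturase (chromosome 19), read 1184.6, 1143.7, 1268.4, 755.9 and 1086.4 in knockout 1 to 5, against 1008.2, 1002.1, 474.1 and 440.5 in wild type 1 to 4. Apart from knockout 4, every knockout mouse lay above every wild-type mouse. The Scd2 log2 difference was 0.66 (SE 0.27, limma adjusted p = 0.487), and 0.34 at a second probe set.

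Scd1, its close relative, is a marker of sebaceous glands (chromosome 19). Its brighter kept probe set read 6856.8, 7736.5, 9881.7, 10098.5 and 7698.2 in knockout 1 to 5, against 10875.4, 9808.2, 7543.6 and 7099.6 in wild type 1 to 4 (log2 -0.06, SE 0.16). The other kept probe set of Scd1 gave 0.18 (SE 0.10, limma adjusted p = 0.607), so the direction was not settled. Fads1, a desaturase of polyunsaturated fatty acids (chromosome 19), averaged 239 ± 55.5 in the knockout and 210 ± 30.1 in the wild type (log2 0.16, SE 0.18).

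Of the elongases, Elovl6 (chromosome 3), which lengthens palmitate, read 2577.9, 1293.7, 2094.7, 3718.3 and 1940.7 in knockout 1 to 5, against 2085.9, 1076.4, 1703.4 and 1555.9 in wild type 1 to 4. Its log2 difference was 0.49 (SE 0.27, limma adjusted p = 0.608), the second probe set gave 0.57, and the difference was 0.30 without knockout 4 and 0.31 without wild type 2. Knockout 2 and wild type 2, which had the highest Fasn signals of their groups, had the lowest Elovl6 signals, so these genes of one pathway did not follow each other across the mice. Elovl1, an elongase of long saturated chains (chromosome 4), averaged 128 ± 21.1 in the knockout and 116 ± 27.0 in the wild type (log2 0.15, SE 0.19). Elovl3, an elongase of sebaceous glands (chromosome 19), stayed under the filter, at 4.7 to 27.9 in the knockout and 4.6 to 36 in the wild type.

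Dgat1, which completes triglyceride and wax ester synthesis (chromosome 15), read 404.3, 268.7, 383.5, 504 and 325.8 in knockout 1 to 5, against 303.2, 361.9, 273.5 and 262.1 in wild type 1 to 4. Knockout 4 was again highest and knockout 2 and knockout 5 lay within the wild-type range (log2 0.31, SE 0.18, limma adjusted p = 0.629), with 0.20 without knockout 4. Mc5r, the melanocortin receptor of sebaceous glands (chromosome 18), read 125.7, 112.4, 106.8, 72.5 and 101.8 in knockout 1 to 5, against 169.4, 82.9, 92.2 and 91.5 in wild type 1 to 4. Knockout 4, the highest array for 6 of the 12 sterol enzymes, was the lowest for Mc5r, and the groups overlapped (log2 -0.03, SE 0.23).

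**Figure D3:**
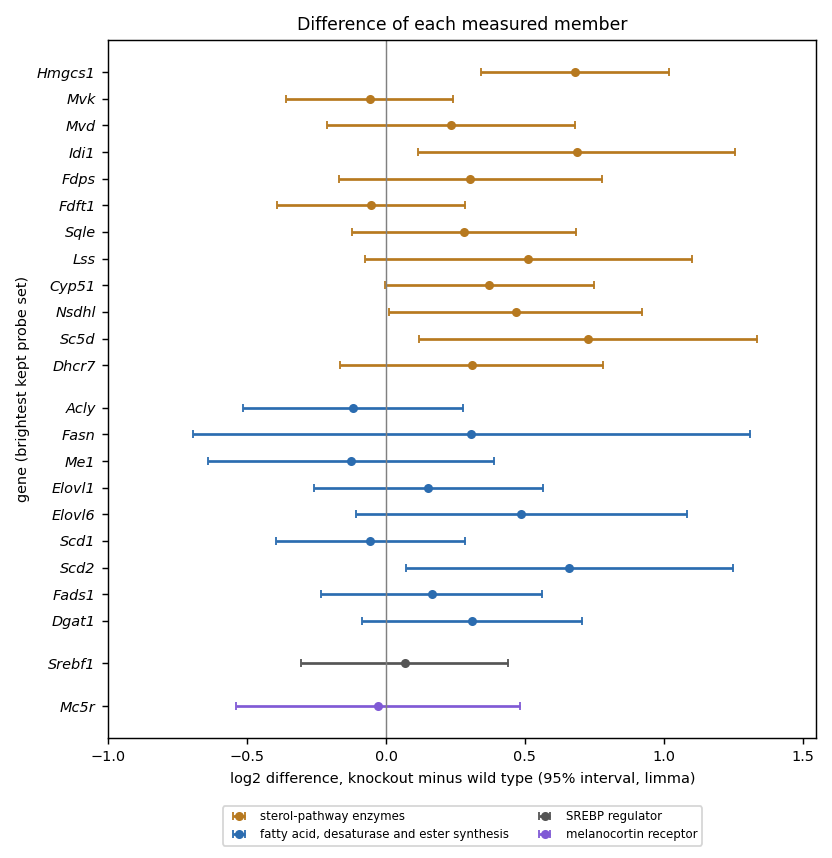
Log2 difference, knockout minus wild type, of each of the 23 measured members (limma, brightest kept probe set, bars for the 95% interval), by gene class from sterol enzymes at the top to Mc5r at the bottom. The sterol enzymes run from -0.06 (Mvk) to 0.73 (Sc5d), and the intervals of Hmgcs1, Idi1, Nsdhl, Sc5d and Scd2 stay above 0 before any adjustment.

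Set against each other, the sterol enzymes exceeded the fatty acid and ester genes by 0.18 (log2) in the median difference. Per mouse, the sterol median minus the fatty acid and ester median, each centred per gene, was 0.13, 0.056, 0.068, 0.25 and -0.0029 in knockout 1 to 5. It was 0.072, -0.17, -0.17 and -0.20 in wild type 1 to 4. Wild type 1 thus lay inside the knockout range and the other wild-type mice lay below it. The contrast rests on few genes and mice: it was 0.077 without knockout 3, 0.11 without knockout 4, 0.12 without knockout 1 or wild type 4, and 0.30 without wild type 2.

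The low and high sterol values came from particular mice. Their centred median was 0.20, 0.039, 0.27, 0.42 and -0.045 in knockout 1 to 5, against 0.28, -0.052, -0.42 and -0.46 in wild type 1 to 4. Wild type 3 and wild type 4, a pair singled out after the values were seen, were the lowest arrays for 7 of the 12 sterol enzymes and for 2 of the 9 fatty acid and ester genes, and this held for 6.46% of all genes. Within the wild type the classes were alike: both mice lay below wild type 1 and wild type 2 for 8 of the 12 sterol enzymes and 6 of the 9 fatty acid and ester genes. Among all genes that held for 20.6%. Knockout 4 was the highest array for 6 of the 12 sterol enzymes, and for 1232 of 5855 genes over the whole series. The wild-type mice thus ran from -0.46 to 0.28 in the sterol median, a wider span than the difference of 0.34 between the groups.

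**Figure D4:**
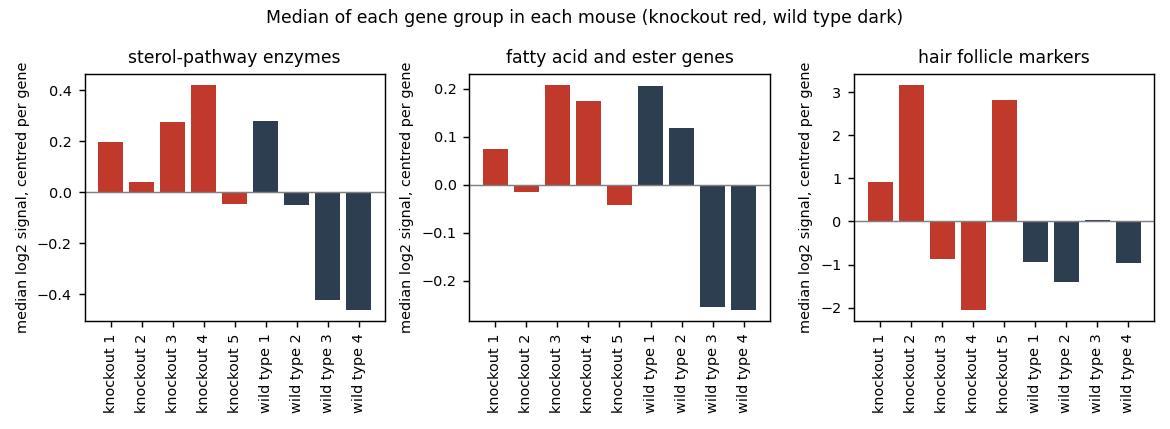
Median log2 signal of the sterol enzymes, the fatty acid and ester genes and the hair follicle markers in each mouse, each gene centred on its mean over the 9 arrays (the vertical scales differ), with knockout bars red and left of the dark wild-type bars. Wild type 3 and wild type 4 are lowest in the sterol and the fatty acid and ester panels, and knockout 2 and knockout 5 are highest in the hair follicle panel.

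Hair follicle markers and sterol genes largely ran in opposite directions within the knockout. The part of the follicle markers in the result was not tested beyond a covariate. Within the knockout, knockout 4 had the lowest follicle median (-2.05) and the highest sterol median, and knockout 2 and knockout 5, with follicle medians of 3.16 and 2.82, had the lowest sterol medians. In the wild type the order differed, since wild type 1 and wild type 4 had follicle medians of -0.94 and -0.96 and sterol medians of 0.28 and -0.46. With that follicle median added to the fit as a covariate, the median sterol difference was 0.52, the fatty acid and ester difference 0.17 and the contrast between them 0.35. In that fit 0 member probe sets passed limma's adjusted threshold, with 13 of 31 (41.9%) at an unadjusted p under 0.05, where all probe sets had 11.2%. The fit used the same slope in both groups, and the follicle median itself differed between them (mean 0.80 in the knockout, -0.81 in the wild type). These values therefore cannot be read as differences cleared of the follicle markers.

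The number of decimals in the deposited values, 7 or 9, splits the arrays into 2 sets, and what the split stands for is not given in the sources used here. The arrays with 7 decimals are 2 knockout and 3 wild-type mice, where the median sterol difference was 0.44 and the fatty acid and ester difference 0.15. Those with 9 decimals are 3 knockout mice and wild type 1 alone, where the sterol median was -0.051 and the fatty acid and ester median -0.25. Hmgcs1 had a log2 difference of 0.64 within the 7-decimal arrays and 0.56 within the 9-decimal arrays, and with the number of decimals as a block in the fit it was 0.61 (limma adjusted p = 0.402). Sc5d was at 0.52 within the 7-decimal arrays and 0.66 within the 9-decimal arrays. For Idi1 the values were 0.76 within the 7-decimal arrays and 0.11 within the 9-decimal arrays, for Nsdhl 0.67 and -0.13 in the same order, and for Scd2 0.97 and 0.0078. With the decimals as a block, the sterol median exceeded the fatty acid and ester median by 0.049, against 0.18 without the block.

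Markers of the cells that hold these pathways were compared in the same way. Of 19 sebaceous gland markers 8 were measured, 5 higher and 3 lower, with a median difference of 0.11, and the median per array ran from -0.19 to 0.27 in the knockout and from -0.18 to 0.077 in the wild type. Of 16 adipocyte markers 12 were measured, 8 higher and 4 lower, with a median difference of 0.12 and a range per array from -0.12 to 0.17 in the knockout and from -0.23 to 0.15 in the wild type. Of 12 epidermal markers 9 were measured, 8 higher and 1 lower, with a median difference of 0.16. Their median per array ranged from -0.10 to 0.33 in the knockout and from -0.33 to 0.036 in the wild type. The 13 measured skeletal muscle markers all had negative differences, with a median of -0.19 and a range per array from -0.19 to 0.0012 in the knockout and from -0.12 to 0.33 in the wild type. The 12 measured macrophage markers all had negative differences too, with a median of -0.31 and array medians that did not overlap, -0.30 to 0.0044 in the knockout and 0.10 to 0.26 in the wild type. At an unadjusted limma p under 0.05, 6 of 12 macrophage and 2 of 13 muscle markers were lower (3.83% of all genes). At that level 2 of 9 epidermal, 1 of 12 adipocyte and 0 of 8 sebaceous markers were higher (4.73% of all genes). Every knockout mouse lay below every wild-type mouse for 2 of 12 macrophage markers (1.45% of all genes), and above for 1 epidermal marker (1.66%). None of these markers passed limma's adjusted threshold, and their part in the lipid gene differences was not tested.

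Further genes of the same routes were read from lists of related genes. Of 15 other genes of sterol synthesis and uptake 7 were measured, 5 higher and 2 lower, with a median of 0.22 and 0 past limma's adjusted threshold. Every knockout mouse lay above every wild-type mouse for 1 of these 7 genes, and for 1.66% of all genes. That gene was Hsd17b7, a ketosteroid reductase of the sterol route. It read 57.7, 53.7, 56.9, 61.6 and 45.5 in knockout 1 to 5, against 43, 28.2, 20.2 and 39.3 in wild type 1 to 4. These Hsd17b7 signals are near or below the filter level, so the log2 difference of 0.81 (SE 0.28, limma adjusted p = 0.417) is uncertain in size, and it was 0.31 with a pseudocount of 64. Msmo1, the sterol methyl oxidase that acts before Nsdhl, averaged 549 ± 152 in the knockout and 395 ± 111 in the wild type (log2 0.47, limma adjusted p = 0.561). Ggps1, which diverts farnesyl diphosphate to geranylgeranyl diphosphate, averaged 97.5 ± 16.6 in the knockout and 76.4 ± 24.4 in the wild type (log2 0.40). The Ggps1 difference was 0.18 without wild type 1 and 0.16 by the median of its probe sets.

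A further list held genes of the LXR receptors, which sense oxidised sterols, and of their targets. The 6 measured were the receptor gene Nr1h3 and Abca1, Abcg1, Apoe, Lpcat3 and Pltp. Of these, 4 had negative differences, against 48.7% of all genes, with a median of -0.07 and 0 past limma's adjusted threshold. The Nr1h3 difference was -0.021. Pltp, a phospholipid transfer protein, read 1641.8, 1692.3, 1553.3, 2302.4 and 1498.6 in knockout 1 to 5, against 1936.8, 2136.5, 2672.1 and 2253.4 in wild type 1 to 4. Knockout 4 alone overlapped the wild-type range (log2 -0.38, SE 0.14, limma adjusted p = 0.458). Of 28 other genes of lipid synthesis 8 were measured, 6 higher and 2 lower, with a median of 0.10 and 0 past limma's adjusted threshold. The elongase Elovl5 averaged 3537 ± 1018 in the knockout and 2554 ± 420 in the wild type (log2 0.44). Gpam, which starts glycerolipid synthesis, averaged 666 ± 107 in the knockout and 550 ± 81.2 in the wild type (log2 0.28). Hsd17b12, a reductase of chain elongation, averaged 1108 ± 120 in the knockout and 914 ± 267 in the wild type (log2 0.32, with 0.19 without wild type 3 and 0.20 without wild type 4).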

How the data were processed

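RNA of 9 skin samples, 1 array per mouse, was measured on Affymetrix MG-U74 GeneChips, with signals from Microarray Suite 5.0 (MAS5) as the processing software, per the labels. The authors deposited them as natural log values, which was settled from the numbers: their exponentials are multiples of 0.1, and the trimmed mean signal is 200.1 to 200.3 in every array. Depth does not apply to arrays, and the number of mice limits the precision. Probe sets were named from the platform annotation (10833 with 1 gene, 396 with several, 1193 with none). Values were converted to log2. Of 12488 probe sets, 66 controls were left out, and 7658 were kept that reached the 40th percentile of an array in 4 or more arrays. Differences are knockout minus wild type, from limma 3.58.1 in R 4.3.3 (lmFit, eBayes with trend) with Benjamini-Hochberg adjustment over all kept probe sets, and exact permutation tests for single genes. A gene is represented by its brightest kept probe set. All members are named, with values in every array for those at an unadjusted p under 0.05 or without overlap, the smallest p values of each class, the regulators and Mc5r, and up to 3 genes per further list by smallest p. A few others were given per array, or singled out, after their values were seen. The members and lists were chosen with earlier results of these data known. Simulated arrays of 7658 probe sets with known changes gave back 27.6% of 1.5-fold and 67.9% of 2-fold changes. Each of 10 runs held 200 changed probe sets, of 1.5-, 2- or 4-fold, with noise drawn independently for each probe set. The real arrays share shifts and gave few calls, so these rates may overstate the recovery here. Alternatives covered arrays left out, scaling, pseudocounts, filters, the variance model, probe set choice, blocks and a hair follicle covariate.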

Additional observations from a re-analysis of the deposited data

Results flagged for a closer look

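Among 52 groups of 4 or 5 mice examined, 5 held 1 value far from the rest of its group (Dixon's ratio above its 95% critical value), and chance alone gives about 1 in 20 groups. Hmgcs1 in knockout 4 was at 1075.1, where the next highest knockout mouse was at 762.3. Mvd in the same mouse was at 310.5, against 195.4 for the next. Wild type 1 gave the other 3: Sc5d at 51.2 (next 41.2), Mc5r at 169.4 (next 92.2), and the sterol median minus the fatty acid and ester median at 0.072 (next -0.17).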

How the results depend on the processing

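In all 21 alternatives run at the level of probe sets, 0 member probe sets passed limma's adjusted threshold, with 2 to 13 at an unadjusted p under 0.05, or 6.45% to 41.9% of them, where all probe sets had 2.43% to 11.2%. The count over all kept probe sets, 4, ranged from 4 to 8 with 1 array left out. It was 7 without knockout 2 or knockout 3 and 8 without knockout 4. With a pseudocount of 64 the count was 7, and in the 7-decimal arrays it was 10. The 9-decimal arrays hold a lone wild-type mouse, which the fit assumes to vary like the others. With the replicate block over mice 1 to 4 the count was 1, and 0 member probe sets passed. The numbers share no source in the labels, and the correlations of same-numbered deviations were 0.11, -0.012, -0.046 and 0.019. Differently numbered mice were not set beside them, so these values cannot show whether same-numbered mice share more than a number. The sterol median kept its sign in 21 of 22 alternatives and ranged from 0.28 to 0.47 with 1 array left out, and the fatty acid and ester median from 0.096 to 0.25. Both turned in the 9-decimal arrays, to -0.051 and -0.25. The contrast between them ranged from 0.077 to 0.30 with 1 array left out, and was 0.35 with the follicle covariate, 0.29 in the 7-decimal arrays 0.049 with the decimals as a block and 0.072 with a filter at the 60th percentile. Of 655 gene values under alternatives 38 had the opposite sign, and the cause was not tested. In the 9-decimal arrays these were Fdps (-0.073), Sqle (-0.11), Lss (-0.41), Cyp51 (-0.028), Nsdhl (-0.13), Fasn (-0.67), Fads1 (-0.30) and Hsd17b12 (-0.044). In the 7-decimal arrays they were Mvk (0.017), Fdft1 (0.015), Dhcr7 (-0.12), Srebf1 (-0.038), Acly (0.12), Me1 (0.028), Mc5r (0.42) and Ggps1 (-0.070). Others were Me1 with the replicate block (0.039), Me1 (0.024), Scd1 (0.091) and Fads1 (-0.043) with the follicle covariate, Srebf1 with the decimals as a block (-0.022) and Scd1 by the median of its probe sets (0.062). With 1 array left out, the values of Mvk ran from -0.14 to 0.045, Fdft1 from -0.13 to 0.051, Scd1 from -0.15 to 0.051, Srebf1 from -0.046 to 0.21, Mc5r from -0.14 to 0.20, Me1 from -0.24 to 0.039, Acly from -0.23 to 0.063 and Fasn from -0.039 to 0.72. Low signals have no detection calls here, which limits Sc5d, Hsd17b7, Insig1 and Elovl3 most.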
